A study of Mus musculus with 11 samples.

Results

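The genes described here are 44 components of cyclic AMP (cAMP) signalling, measured in granulosa cells, which nurse the oocyte inside the ovarian follicle and make oestrogen. They were taken by name and comprise 9 adenylyl cyclases, 14 phosphodiesterases, 2 catalytic and 4 regulatory subunits of protein kinase A (PKA), 2 EPAC exchange factors, 5 A-kinase anchoring proteins, 3 factors of the CREB family, 4 coactivators of CREB, and Rgs2. All 44 genes were found among the 24809 gene IDs with RNA counts and the 24541 with H3K4me3 counts. The cells came from C57BL/6 mice by puncture of follicles, and the labels give no other genotype. One group of mice was untreated (0 h). The other had been given equine chorionic gonadotropin (eCG), whose activity in mice includes that of follicle-stimulating hormone (FSH), for 48 h. The labels name the agent both as eCG and as FSH. RNA was sequenced from 3 libraries per group, all labelled postnatal day 21, and H3K4me3, a histone mark found at active promoters, was measured by ChIP-seq in 2 libraries per group that carry no age label. Untreated mice were sampled at 0 h alone, so eCG and elapsed time cannot be told apart. The series calls the libraries of a group biological replicates and does not say whether animals were pooled, so the p-values measure the spread between these libraries.

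As background, FSH binds a receptor on granulosa cells that acts through the stimulatory G protein on adenylyl cyclases, which make cAMP, and phosphodiesterases break cAMP down again. cAMP binds the regulatory subunits of PKA and frees the catalytic subunits, while anchoring proteins hold the kinase at particular places in the cell and EPAC proteins carry the cAMP signal to the small GTPase Rap. PKA phosphorylates factors of the CREB family, which with their coactivators switch on genes whose promoters hold a cAMP response element, and in granulosa cells this route is known for raising aromatase and the receptor of luteinizing hormone (LH).

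The sequences below show what the gene starts of 5 members look like, since some members of the pathway are themselves known as cAMP targets. They were chosen because Prkar1a holds the complete element, Rgs2 and Pde7b were lower and Prkaca was higher at 48 h in both assays, and Prkar2b is the FSH-responsive regulatory subunit. Each is the RefSeq promoter window of GRCm38.p6, 300 bases from 250 before to 50 after a transcript start, printed 5′ to 3′ on the gene's strand, with the element TGACGTCA or its 5-base core (TGACG, or CGTCA on the other strand) in capitals. The windows are Prkar1a chr11:109650699-109650998 (plus strand), Rgs2 chr1:144004100-144004399 (minus), Pde7b chr10:20548279-20548578 (minus), Prkaca chr8:83972728-83973027 (plus) and Prkar2b chr12:32061228-32061527 (minus).
Prkar1a: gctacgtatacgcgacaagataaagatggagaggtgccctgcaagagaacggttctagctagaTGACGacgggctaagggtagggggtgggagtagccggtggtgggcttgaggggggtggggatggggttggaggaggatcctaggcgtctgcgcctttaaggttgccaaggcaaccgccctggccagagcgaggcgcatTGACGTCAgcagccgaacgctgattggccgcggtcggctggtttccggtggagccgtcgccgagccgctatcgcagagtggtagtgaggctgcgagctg
Rgs2: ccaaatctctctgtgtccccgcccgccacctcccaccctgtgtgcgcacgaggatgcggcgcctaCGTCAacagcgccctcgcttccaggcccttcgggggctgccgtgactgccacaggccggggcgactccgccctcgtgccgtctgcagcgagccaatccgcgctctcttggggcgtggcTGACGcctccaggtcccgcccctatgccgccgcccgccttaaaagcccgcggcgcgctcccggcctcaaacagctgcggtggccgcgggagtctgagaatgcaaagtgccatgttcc
Pde7b: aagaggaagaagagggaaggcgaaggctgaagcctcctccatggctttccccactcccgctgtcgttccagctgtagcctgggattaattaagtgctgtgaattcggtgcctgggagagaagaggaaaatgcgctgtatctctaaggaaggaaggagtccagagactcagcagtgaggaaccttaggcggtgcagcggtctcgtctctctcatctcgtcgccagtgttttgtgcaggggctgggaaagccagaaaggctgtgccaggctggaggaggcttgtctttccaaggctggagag
Prkaca: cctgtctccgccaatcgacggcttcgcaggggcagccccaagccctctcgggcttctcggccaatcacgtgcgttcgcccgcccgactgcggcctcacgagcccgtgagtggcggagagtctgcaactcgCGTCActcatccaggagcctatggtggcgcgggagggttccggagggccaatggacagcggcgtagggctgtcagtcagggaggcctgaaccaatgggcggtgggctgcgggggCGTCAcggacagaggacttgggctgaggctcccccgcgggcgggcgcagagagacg
Prkar2b: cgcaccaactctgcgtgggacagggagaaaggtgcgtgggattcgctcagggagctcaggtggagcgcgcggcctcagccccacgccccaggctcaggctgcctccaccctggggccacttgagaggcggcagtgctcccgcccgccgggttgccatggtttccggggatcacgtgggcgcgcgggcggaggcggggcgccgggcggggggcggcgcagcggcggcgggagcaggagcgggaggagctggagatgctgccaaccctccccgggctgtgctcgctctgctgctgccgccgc

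In Prkar1a the complete element began 49 bases before the start and a separate core lay 187 bases before it. Rgs2 held cores 185 and 67 bases before its start, and Prkaca held them 120 and 6 bases before. No core was found in the printed windows of Pde7b and Prkar2b, which says only that these letters are not in those windows. The printed windows of Prkar1a, Pde7b and Prkar2b belong to transcript starts inside the gene. These genes span chr11:109649023-109669663, chr10:20397052-20725078 and chr12:31958450-32061648. The windows of Rgs2 and Prkaca lie across the outer end of the gene. RefSeq windows were found for 36 of the 44 members, 70 windows in all, and the other 8 members are Adcy6, Adcy8, Pde3a, Pde3b, Pde7a, Akap12, Crem and Crtc2. Of the 6 windows of Prkar1a, 2 overlapping ones held the complete element, and no other member's window did; this is 2.86% of member windows, beside 1.79% of 32851 windows of all genes. A core, counted on either strand and also where it lies inside the complete element, was found in 17 member windows (24.3%), beside 20.8% of all windows. By gene, 15 of the 36 members (41.7%) held a core in at least 1 window, beside 23.0% of 27025 genes; members have 70 windows for 36 genes, more per gene than the 32851 for all. The median number of CpG in member windows was 16, with a range of 1 to 49, beside a median of 7 over all windows. A match here is a description of the sequence and not a site of binding.

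RNA libraries held 12013849 to 26343971 counts in total, and H3K4me3 libraries held 11989769 to 17968033. Values below are normalised read counts, as CPM after TMM scaling (counts relative to the library total), and a gene is called changed when its p in the quasi-likelihood test of edgeR, adjusted over all tested genes after Benjamini and Hochberg, was under 0.05. The 12 granulosa markers were all detected, with a summed level of 14100.1 to 18801 CPM at 0 h and 34375 to 34927 CPM at 48 h, and 7 of them rose and 3 fell. Markers of other cells moved with the groups as well. Of 12 endothelial markers 11 rose, and their summed level was 132 to 140 CPM at 0 h and 780, 251 and 312 CPM in 48 h replicates 1 to 3. Of 18 oocyte markers 15 were tested and 7 fell, with sums of 209 to 240 CPM at 0 h and 69.4 to 163 CPM at 48 h, and Oog1 was at 0 in all libraries. Theca markers summed to 4380 to 5895 CPM and then 9082 to 12044 CPM, with 5 rises and 4 falls among 14. Hsd3b1, which is also made by other steroidogenic cells, supplied most of that sum, and the other 13 markers summed to 2451, 1953 and 2341 CPM at 0 h and 5063, 2025 and 2103 CPM at 48 h, so that 1 of the 3 libraries at 48 h lay above the 0 h range. Smooth muscle markers summed to 322 to 349 CPM and then 542, 223 and 278 CPM, with 2 rises among 10, and immune markers to 202 to 334 CPM and then 165 to 280 CPM. All 3 tested of 7 red cell markers rose, and the list summed to 90.1, 68.4 and 129 CPM at 0 h and 544, 164 and 685 CPM at 48 h. The globins Hbb-bs, Hbb-bt, Hba-a1 and Hba-a2 were at 0 throughout, and why they had no count was not tested. Among the 48 h libraries replicate 1 had the highest endothelial, smooth muscle, theca, oocyte and immune sums. In bulk RNA, fewer cells of a type and less RNA per cell cannot be told apart, and the part of other cells in the results below was not tested.

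The RNA comparison asked which cAMP signalling transcripts differed after 48 h of eCG. Of 40 members tested, 9 rose (Adcy3, Adcy4, Adcy9, Pde1a, Pde3b, Pde4b, Prkaca, Prkar2b and Atf1), 9 fell (Pde7a, Pde7b, Pde8b, Prkar1b, Rapgef4, Akap13, Crtc2, Crtc3 and Rgs2) and 22 did not pass. That is 45% called, beside 31.8% of the 14401 genes tested, of which 16.0% were called higher and 15.8% lower. The members were chosen with earlier results of these data known, so their shares, here and in H3K4me3, are descriptions and not tests. The share called grows with the count, and among genes of at least 50 CPM it was 55.0% of 20 members beside 40% of all. The groups did not overlap in 19 of the 40 members, beside 47.9% of all genes. The members' median log2 fold change was -0.05, beside -0.03 over all genes. When libraries were scaled by size alone, the median of all genes was -0.20 and the split of the members' calls became 6 higher and 12 lower, while the share of all calls that were higher went from 50.2% to 26.8%. The calls of 12 of the 18 members held in all 13 alternative settings.

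**Figure D1:**
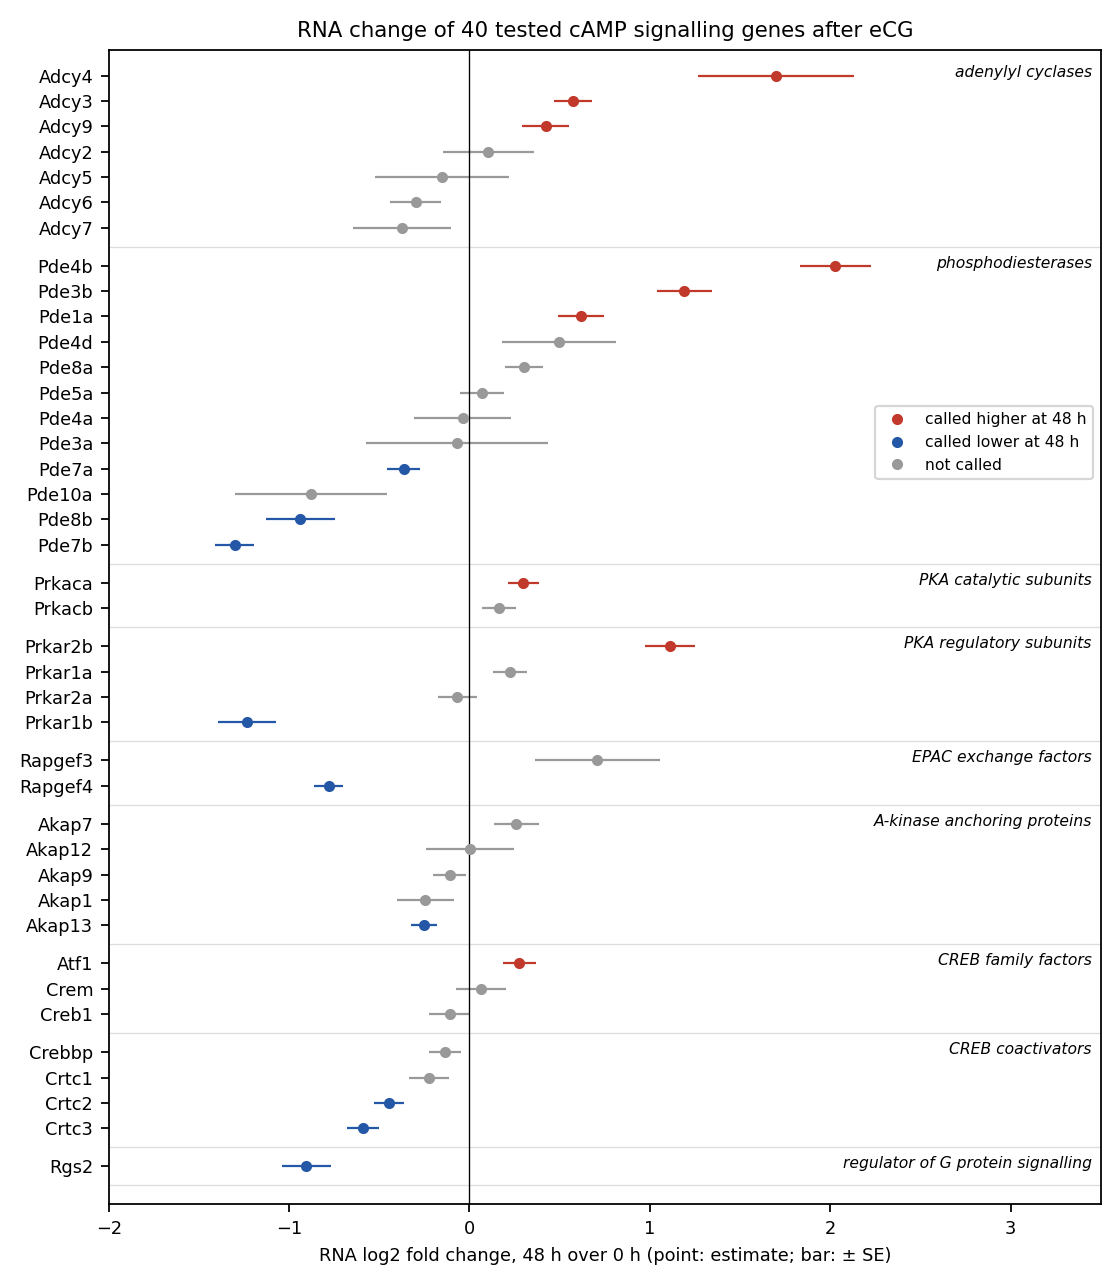
RNA log2 fold change (48 h over 0 h, horizontal axis) of the 40 tested members grouped by role, with points for the estimate, bars for ± SE and colour for the call (red higher, blue lower, grey not called). The largest rises are Pde4b (2.03) and Adcy4 (1.70), and the largest falls are Pde7b (-1.30) and Prkar1b (-1.23).

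Among adenylyl cyclases, 3 of 7 tested rose and 4 did not pass. Adcy3, a membrane cyclase best known from olfactory neurons (gene ID 104111), stood at 62.0, 66.8 and 71.3 CPM at 0 h and 114, 94.5 and 89.8 CPM at 48 h. All 48 h libraries lay above all 0 h libraries, and the log2 fold change was 0.58 ± 0.11 (SE) with an adjusted p of 0.00468. The gene overlaps Cenpo, and whether counting used strand is not given in the sources used here. Adcy9, a widely expressed cyclase, was measured at 197, 172 and 179 CPM at 0 h and 294, 218 and 221 CPM at 48 h, again without overlap (log2 0.42 ± 0.13, adjusted p = 0.0371). Its call was lost with scaling by library size alone (adjusted p = 0.122), without 0 h replicate 2 (0.111) and without 0 h replicate 3 (0.108).

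Adcy4, a cyclase that responds to G protein βγ subunits, was low at 1.54, 2.12 and 2.16 CPM at 0 h and 11.0, 3.28 and 5.05 CPM at 48 h (log2 1.70 ± 0.43, adjusted p = 0.0178). The first 48 h library stood apart at 2.17 times the higher of the other two, and it is the library with the highest sums of 5 marker lists of other cells at 48 h. Without that library the call held (log2 1.07, adjusted p = 0.0284), whereas it was lost without 0 h replicate 1 (0.0585) or 0 h replicate 3 (0.0524) and by limma voom (0.0577).

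Adcy6 and Adcy5, closely related cyclases inhibited by calcium, did not pass. Adcy6 was at 132, 158 and 182 CPM at 0 h and 150.0, 119.9 and 114 CPM at 48 h, groups that overlapped (log2 -0.30 ± 0.14, adjusted p = 0.14). Adcy5 was at 8.42, 13.0 and 15.4 CPM at 0 h and 18, 6.08 and 9.66 CPM at 48 h, with the first 48 h library 1.86 times the higher of the others (log2 -0.15 ± 0.37, adjusted p = 0.784). Adcy2 and Adcy7, the remaining tested cyclases, had log2 values of 0.10 (adjusted p = 0.783) and -0.37 (0.324). Adcy1 and Adcy8, cyclases stimulated by calcium and calmodulin, were below the count filter, with at most 17 and 2 counts in any library. Summed over all 9 cyclases the level was 416, 432 and 469.5 CPM at 0 h and 609, 453 and 453 CPM at 48 h, and the groups overlapped. Within that sum the share of counts from Adcy3 went from 15.2 ± 0.281% to 19.8 ± 1.07% (SD, n = 3), that of Adcy9 from 41.7 ± 4.92% to 48.4 ± 0.310% and that of Adcy6 from 35.7 ± 3.53% to 25.4 ± 0.943%. Shares of counts contain gene length, so only their shift between groups is read here.

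Phosphodiesterases moved in both directions, with 3 rises, 3 falls and 6 not called among 12 tested. The largest rise among the members was that of Pde4b (gene ID 18578), a phosphodiesterase specific for cAMP. It stood at 3.28, 3.16 and 3.37 CPM at 0 h and 13.3, 16.2 and 10.4 CPM at 48 h, a 4.08-fold difference with no overlap (log2 2.03 ± 0.20, adjusted p = 3.39e-04). Pde3b, a phosphodiesterase inhibited by cGMP and known for its part in the insulin response of fat cells, was at 5.27, 6.67 and 6.33 CPM at 0 h and 15.4, 13.5 and 13.0 CPM at 48 h (log2 1.19 ± 0.15, adjusted p = 9.90e-04). The lowest 48 h library was above the highest 0 h library by more than either group's spread. Pde1a, which is activated by calcium and calmodulin and breaks both cAMP and cGMP, rose from 16.4, 19.3 and 14.0 CPM to 24.7, 26.4 and 25.3 CPM (log2 0.62 ± 0.13, adjusted p = 0.00727).

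The falls were in Pde7b, Pde8b and Pde7a, 3 phosphodiesterases specific for cAMP. Pde7b (gene ID 29863; chromosome 10, 20397052 to 20725078 in GRCm38.p6) was measured at 110.3, 139 and 134 CPM at 0 h and 54.9, 52.1 and 48.7 CPM at 48 h. The highest 48 h library lay far below the lowest 0 h library, and the log2 fold change was -1.30 ± 0.11 (adjusted p = 1.90e-04). Pde8b fell from 8.29, 7.31 and 7.43 CPM to 4.83, 3.80 and 3.39 CPM (log2 -0.94 ± 0.19, adjusted p = 0.00716), also without overlap. Pde7a changed less, from 52.5, 54.1 and 51.6 CPM to 36.6, 42.7 and 43.6 CPM (log2 -0.36 ± 0.09, adjusted p = 0.0172), and its call was lost without 0 h replicate 2 (0.0735) or 0 h replicate 3 (0.0582).

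Pde8a, the close relative of Pde8b, did not pass, at 70.9, 76.5 and 84.0 CPM at 0 h and 83.6, 103 and 98.5 CPM at 48 h (log2 0.30 ± 0.10, adjusted p = 0.0545). The lowest 48 h library, replicate 1, was just inside the 0 h range. The call was made with all libraries by DESeq2 (0.0263) and with its size factors in edgeR (0.0395), and without 48 h replicate 1 (0.0109). Pde10a, which breaks both cyclic nucleotides, was at 4.63, 19.6 and 13.8 CPM at 0 h and 7.74, 6.20 and 6.96 CPM at 48 h (log2 -0.88 ± 0.42, adjusted p = 0.143). The 0 h libraries of Pde10a spread widely, and without 0 h replicate 1 the call was made (0.00531). Pde4d, Pde5a, Pde4a and Pde3a had log2 values of 0.50, 0.07, -0.04 and -0.07 with adjusted p from 0.258 to 0.935; of these Pde5a acts on cGMP alone. Pde3a, the phosphodiesterase known from oocytes, was at 1.80, 1.88 and 2.37 CPM at 0 h and 3.83, 0.959 and 1.13 CPM at 48 h, the first 48 h library being 3.39 times the higher of the others. At 48 h that library also had the highest oocyte (163 CPM), endothelial (780 CPM) and smooth muscle (542 CPM) sums. Its oocyte sum was below the 209 to 240 CPM of the 0 h libraries. The part of other cells in the Pde3a values was not tested. Pde1c and Pde4c were below the filter, with at most 10 and 8 counts in a library.

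The summed level of the 14 phosphodiesterases was 306, 357 and 348 CPM at 0 h and 286, 295 and 281 CPM at 48 h, a ratio of 0.853 with groups that did not overlap. Behind that small difference the make-up of the counts shifted. Pde7b supplied 37.9 ± 1.65% of the family's counts at 0 h and 18 ± 0.972% at 48 h (SD, n = 3). Pde8a went from 22.9 ± 1.36% to 33.1 ± 3.35%, Pde1a from 4.94 ± 0.785% to 8.87 ± 0.199%, Pde3b from 1.80 ± 0.0758% to 4.85 ± 0.455% and Pde4b from 0.975 ± 0.0920% to 4.60 ± 0.905%. In every one of these 5 genes the 3 libraries of a group lay on the same side of the 3 of the other group. Shares sum to the whole family, so that of Pde8a, which has no call of its own, also depends on the levels of the others.

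**Figure D2:**
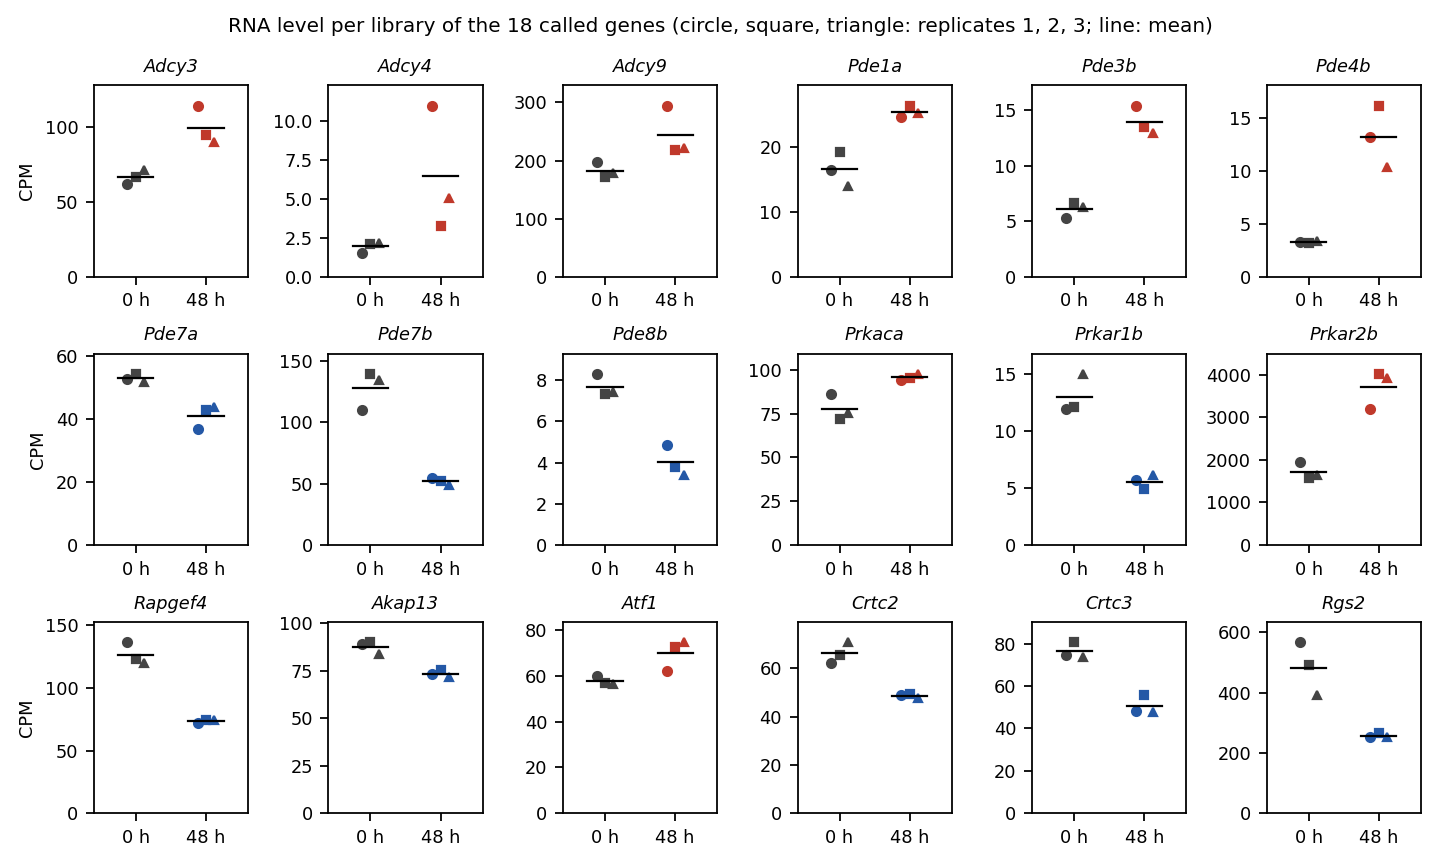
RNA level in CPM (vertical axes, each from 0) of the 18 called members in the 3 libraries at 0 h (dark) and the 3 at 48 h (red where called higher, blue where lower), with a line at each mean. No panel shows an overlap of the groups; in Adcy4 the 48 h libraries range from 3.28 to 11.0 CPM.

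Of the 6 PKA subunit genes, Prkar2b and Prkaca rose, Prkar1b fell and 3 did not pass. Prkar2b (gene ID 19088; chromosome 12, 31958450 to 32061648 in the same build), the RIIβ subunit known in granulosa cells for its response to FSH, was at 1936, 1562 and 1644 CPM at 0 h and 3194, 4011 and 3911 CPM at 48 h. The means were 1714 ± 197 and 3705 ± 446 CPM (SD, n = 3), a 2.16-fold difference well outside the spread of either group (log2 1.11 ± 0.14, adjusted p = 8.99e-04). Prkar1b, the RIβ subunit best known from the brain, went the other way at 11.9, 12.1 and 15.0 CPM at 0 h and 5.67, 4.92 and 6.09 CPM at 48 h (log2 -1.23 ± 0.16, adjusted p = 0.00114), and the gene overlaps Dnaaf5. Prkar1a, the widely expressed RIα subunit whose window holds the complete element, was at 368, 347 and 359 CPM at 0 h and 385, 435 and 434 CPM at 48 h. Its groups did not overlap, but the test did not pass (log2 0.22 ± 0.09, adjusted p = 0.0979), while DESeq2 called it (0.0109) and so did the fit without 48 h replicate 1 (0.0170). Prkar2a, the RIIα subunit, had a log2 value of -0.07 ± 0.11 (adjusted p = 0.671).

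The ratio of Prkar2b to Prkar1a counts within a library was 5.26, 4.51 and 4.58 at 0 h and 8.29, 9.21 and 9.02 at 48 h. Its mean went from 4.78 ± 0.416 to 8.84 ± 0.483 (SD, n = 3), 1.85 times as high, a shift that does not depend on how libraries are scaled. Prkar2b supplied 80.6 ± 1.46% of regulatory subunit counts at 0 h and 88.9 ± 0.526% at 48 h, Prkar1a 16.9 ± 1.11% and then 10.1 ± 0.505%, and Prkar1b 0.617 ± 0.111% and then 0.135 ± 0.0239%. The sum over the 4 regulatory genes was 1.96 times as high at 48 h, going from 2352, 1959 and 2059 CPM to 3616, 4490.2 and 4389.9 CPM. For the 2 catalytic genes the sum was 199, 188 and 199.9 CPM and 211, 232 and 239.7 CPM, a ratio of 1.16.

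**Figure D3:**
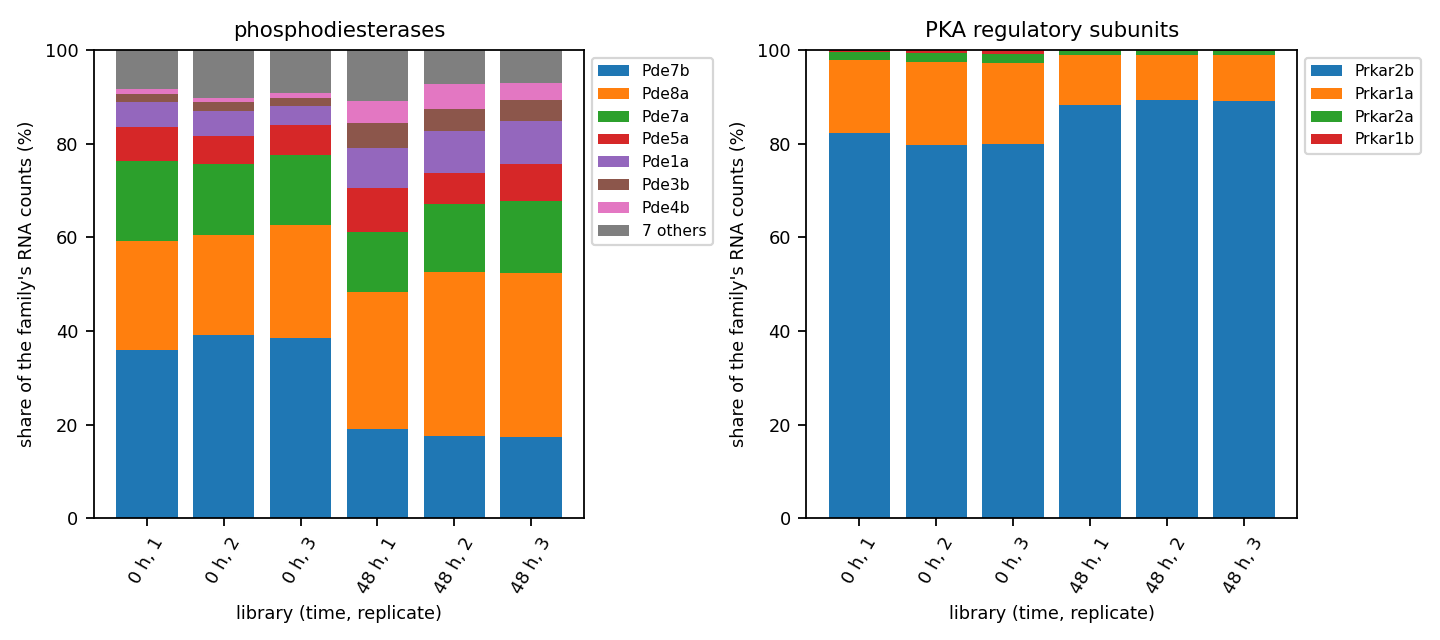
Share of the summed RNA counts of a family (vertical axis, %) taken by each member in each of the 6 libraries, for the phosphodiesterases (left) and the regulatory subunits of PKA (right). The Pde7b share is 37.9 ± 1.65% at 0 h and 18 ± 0.972% at 48 h, and the Prkar2b share is 80.6 ± 1.46% and 88.9 ± 0.526%.

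Of the catalytic genes, Prkaca (Cα) was at 86.3, 72.2 and 75.2 CPM at 0 h and 94.4, 95.5 and 97.6 CPM at 48 h, with no overlap (log2 0.30 ± 0.09, adjusted p = 0.0303). The difference was small and its call depended on the setting: it was lost with scaling by library size alone (0.243) and without 0 h replicate 2 (0.109), 0 h replicate 3 (0.104), 48 h replicate 2 (0.0608) or 48 h replicate 3 (0.0698). Prkacb (Cβ) was at 113, 116 and 125 CPM at 0 h and 117, 137 and 142 CPM at 48 h and did not pass (log2 0.16 ± 0.10, adjusted p = 0.227). Its groups overlapped through the first 48 h library, and without that library it passed (0.0344).

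Of the EPAC genes, Rapgef4 (EPAC2) fell and Rapgef3 (EPAC1) did not pass. Rapgef4 was at 136, 123 and 119.9 CPM at 0 h and 71.9, 74.5 and 74.3 CPM at 48 h, groups far apart relative to their spread (log2 -0.78 ± 0.08, adjusted p = 4.24e-04). Rapgef3 was at 3.98, 4.49 and 5.33 CPM at 0 h and 12.3, 4.88 and 5.57 CPM at 48 h (log2 0.71 ± 0.35, adjusted p = 0.151), where the first 48 h library was 2.22 times the higher of the others. Summed, the EPAC genes stood at 140.2, 128 and 125 CPM and then 84.2, 79.4 and 79.9 CPM.

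Of the 5 anchoring proteins, Akap13 was called lower at 88.7, 89.8 and 83.9 CPM at 0 h and 73.0, 75.2 and 71.9 CPM at 48 h (log2 -0.25 ± 0.07, adjusted p = 0.0280). The groups did not overlap, but the call held in only 6 of 13 alternatives, being lost without a filter on low counts (0.0513) and without 0 h replicates 1, 2 and 3 in turn (0.0585, 0.122 and 0.0664) or 48 h replicates 2 and 3 (0.0848 and 0.124). Akap1, which sits on mitochondria, Akap9 at the centrosome and Golgi, Akap12 and Akap7 had log2 values of -0.25, -0.11, 0.00 and 0.26 with adjusted p from 0.144 to 0.993. Akap1 and Akap7 passed without 48 h replicate 1, at -0.44 (0.0165) and 0.34 (0.0478).

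Among the transcription factors, Creb1 and Crem did not pass. Creb1 was at 74.2, 78.8 and 69.5 CPM at 0 h and 57.2, 72.5 and 76.4 CPM at 48 h (log2 -0.11 ± 0.11, adjusted p = 0.496) and Crem, whose gene also gives the repressor form ICER, at 10.7, 9.87 and 12.5 CPM at 0 h and 11.8, 11.0 and 11.9 CPM at 48 h (log2 0.06 ± 0.14, adjusted p = 0.753). Gene counts do not separate ICER from other Crem transcripts. Atf1 was called higher at 59.9, 57.0 and 56.3 CPM at 0 h and 62.3, 72.6 and 74.6 CPM at 48 h (log2 0.28 ± 0.09, adjusted p = 0.0464), a call that held in 4 of 13 alternatives. It was lost with scaling by library size alone (0.411), without a filter (0.0597), by limma voom (0.0515), and without 0 h replicates 1, 2 and 3 (0.0629, 0.121 and 0.132) or 48 h replicates 2 and 3 (0.104 and 0.11).

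Of the CREB coactivators, 2 of 4 fell. Crtc3 was at 74.6, 80.6 and 73.8 CPM at 0 h and 48.3, 55.6 and 47.7 CPM at 48 h (log2 -0.59 ± 0.09, adjusted p = 0.00203; the gene overlaps the lncRNA gene Gm15880) and Crtc2 at 62.2, 65.6 and 70.6 CPM at 0 h and 48.8, 49.3 and 47.5 CPM at 48 h (log2 -0.45 ± 0.08, adjusted p = 0.00438). CRTC proteins bind CREB and enter the nucleus when they lose phosphate, and in both genes every 48 h library lay below every 0 h library. Crtc1 (log2 -0.22 ± 0.11, adjusted p = 0.159) and the acetyltransferase Crebbp (-0.14 ± 0.09, 0.278) did not pass, and all 4 estimates were below 0. With scaling by library size alone Crtc1 (0.0350) and Crebbp (0.0416) passed as well. The sum over the 4 genes was 272, 301 and 296 CPM and then 212, 238 and 236 CPM, a ratio of 0.791.

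Rgs2 (gene ID 19735; chromosome 1, 143999338 to 144004149 in the same build), which speeds the shut-off of G proteins and can inhibit adenylyl cyclases, was at 567, 492 and 391 CPM at 0 h and 252, 268 and 253 CPM at 48 h. The 0 h libraries spread over 391 to 567 CPM and the 48 h libraries over 252 to 268 CPM, with no overlap. The mean went from 483 ± 88.3 to 258 ± 8.69 CPM (SD, n = 3), a log2 fold change of -0.91 ± 0.14 with an adjusted p of 0.00190 that held in all 13 alternatives.

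The first 48 h library was at least 1.5 times the higher of the other 48 h libraries in 7 of the 40 tested members (17.5%), namely Pde3a, Rapgef3, Adcy4, Adcy5, Akap12, Adcy7 and Pde4a, beside 9.05% of all tested genes; that threshold was chosen after the values were seen. Without this library 26 members passed, 13 in each direction, with all 18 calls kept and 8 added. The additions were Pde8a, Prkar1a, Prkacb and Akap7 among the higher genes and Adcy6 (-0.43, adjusted p = 0.0332), Adcy7 (-0.74, 0.0282), Pde3a (-0.96, 0.0484) and Akap1 among the lower. Over all genes the number called went from 4585 to 5345. Without 0 h replicate 3, by contrast, 12 members were called, all among the 18, and 5 of them were higher.

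The H3K4me3 comparison asked whether the mark counted at the same genes differed between the groups. All 44 members were tested, and 7 were called higher (Adcy5, Adcy6, Pde3b, Pde8a, Prkaca, Prkacb and Prkar1a) and 2 lower (Pde7b and Rgs2). This is 20.5% of members, beside 8.44% of 24476 genes, of which 6.37% were called higher and 2.08% lower. At 20 CPM or more of the mark genes were called more often, with 9 of 30 members beside 14.2% of all genes. The share over all genes was no higher at 50 CPM or more (13.2%) or 100 CPM or more (13.8%). The groups did not overlap in 25 members, beside 49.2% of all genes. Of the 44 estimates 33 were above 0, with a median log2 value of 0.09, beside 49.7% of all genes; among genes of at least 20 CPM the counts were 26 of 30 members and 65.6% of all. With scaling by library size alone 5 members were called higher and 2 lower, and the share of higher calls over all genes went from 75.4% to 52.3%. The window in which reads were counted for each gene is not given in the sources used here.

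Pde7b and Rgs2 had the clearest losses of the mark. Pde7b was at 113 and 113 CPM at 0 h and 68.9 and 78.5 CPM at 48 h (log2 -0.62 ± 0.07, adjusted p = 1.70e-08). Rgs2, with the highest H3K4me3 count of the members, was at 252 and 255 CPM at 0 h and 177 and 192 CPM at 48 h (log2 -0.46 ± 0.07, adjusted p = 3.08e-06). In both genes the 0 h libraries lay within a few CPM of each other and above both 48 h libraries. Adcy5 showed the largest gain at 23.9 and 20.9 CPM at 0 h and 34.0 and 33.0 CPM at 48 h (log2 0.57 ± 0.09, adjusted p = 2.71e-05). These 3 were the members whose call held in all 11 alternatives.

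The gains of the other 6 members were smaller, between 0.23 and 0.34 on the log2 scale. Pde8a was at 93.3 and 98.1 CPM at 0 h and 122 and 119.9 CPM at 48 h (adjusted p = 7.70e-04), and its call was lost without 0 h replicate 1 (0.170). Prkar1a was at 132 and 138 CPM at 0 h and 172 and 153 CPM at 48 h (adjusted p = 0.0105) and Prkacb at 103 and 111 CPM at 0 h and 132 and 119.8 CPM at 48 h (0.0292). Prkaca was at 67.8 and 71.1 CPM at 0 h and 91.6 and 79.5 CPM at 48 h (0.00553), Adcy6 at 66.4 and 70.6 CPM at 0 h and 89.8 and 78.7 CPM at 48 h (0.00562) and Pde3b at 33.3 and 35.5 CPM at 0 h and 44.7 and 40.8 CPM at 48 h (0.00946). In all 6 genes both 48 h libraries lay above both 0 h libraries, and in each the first 48 h library was the higher. The counts of Prkaca, Adcy6 and Pde3b were within 20% of those of a neighbouring gene closer than 5000 bp (Samd1, 4930415O20Rik and 4933406I18Rik), so the mark could not be assigned to 1 gene of each pair.

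The calls of these 6 small gains were lost when 0 h replicate 1 was left out, and all but that of Pde8a without 48 h replicate 1, with estimates that stayed above 0. The 6 log2 values were 0.16 to 0.28 without 0 h replicate 1 and 0.15 to 0.32 without 48 h replicate 1, and the calls over all genes went from 2066 to 280 and 1181. Without 0 h replicate 1 the members called higher went from 7 to 1, Adcy5, and without 48 h replicate 1 to 2, Adcy5 and Pde8a. The adjusted p values of Prkar1a, Prkacb, Prkaca, Adcy6 and Pde3b were then 0.396, 0.562, 0.382, 0.408 and 0.479 without 0 h replicate 1, and 0.343, 0.410, 0.216, 0.189 and 0.116 without 48 h replicate 1. Prkacb was also lost without 0 h replicate 2. In edgeR its call was lost with DESeq2 size factors (0.0517), scaling by library size alone (0.0504) and a minimum mean of 1 CPM (0.0712). DESeq2 called 3 members higher and 2 lower, and Prkaca (0.0532), Adcy6 (0.0545), Prkacb (0.109) and Pde3b (0.122) lost the call. Without 48 h replicate 2 the higher calls were 10 and the lower calls 3, the additions being Crtc3 (0.00598), Crebbp (0.0121), Akap13 (0.0396) and, lower, Pde4b (0.0463).

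**Figure D4:**
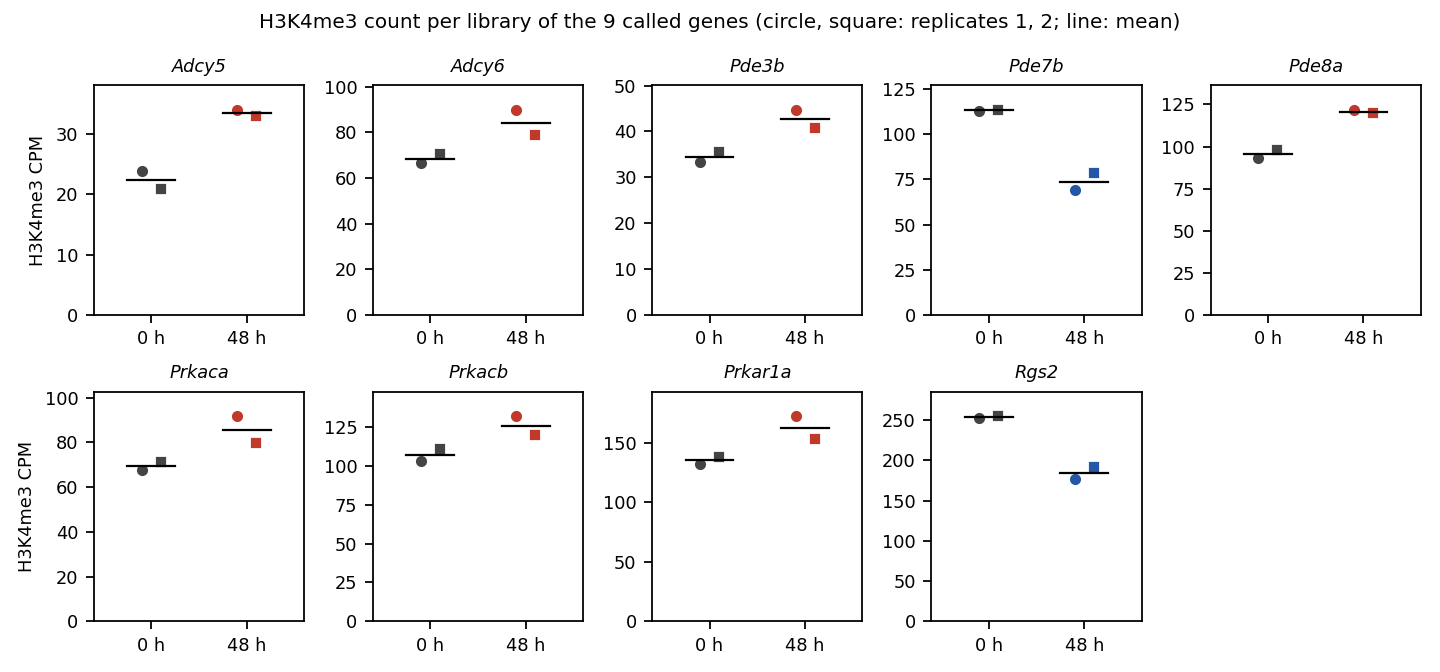
H3K4me3 count in CPM (vertical axes, each from 0) of the 9 called members in the 2 libraries at 0 h (dark) and the 2 at 48 h (red where called higher, blue where lower), with a line at each mean. Pde7b lies at 113 and 113 CPM at 0 h and 68.9 and 78.5 CPM at 48 h.

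The 5129 genes without a single RNA count gave a background for the mark, with a median of 1.56 CPM and a 95th percentile of 17.5 CPM, a level that 50.6% of all genes exceeded. Of the 44 members 32 lay above it and 12 below (Adcy1, Adcy4, Adcy7, Adcy8, Pde1a, Pde1c, Pde4a, Pde4b, Pde4c, Pde4d, Pde8b and Crem). The 9 members with an H3K4me3 call all belonged to the 32. Among the 12, 8 had been tested for RNA and 4 of them were called there, namely Adcy4, Pde1a, Pde4b and Pde8b. Pde4b, the member with the largest RNA rise, had H3K4me3 counts of 6.52 and 5.65 CPM at 0 h and 3.48 and 6.01 CPM at 48 h, under that background in every library. RefSeq lists 4 start windows for Pde4b, with 1 to 8 CpG each, and which of them the deposited count covers is not known. Across the 36 members with a window the H3K4me3 count followed the highest CpG number of a window with a Spearman correlation of 0.54 (Pearson r 0.44), beside 0.72 (0.61) over 18245 genes. These correlations are across genes, which share libraries and base composition, and describe these libraries only.

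Set side by side, the assays called Pde3b and Prkaca higher in both and Pde7b and Rgs2 lower in both. These 4 are 10% of the 40 members tested in both, beside 5.13% of 14357 genes. DESeq2 did not call Pde3b (adjusted p = 0.122) or Prkaca (0.0532) in H3K4me3. As given above, the H3K4me3 counts of Pde3b and Prkaca could not be told apart from those of a neighbouring gene. Their H3K4me3 calls and the RNA call of Prkaca also depended on the setting. A further 14 members were called in RNA alone, 5 in H3K4me3 alone and 17 in neither, beside 3726, 958 and 8821 of the 14357 genes. No member was called in opposite directions, beside 116 of all genes. Adcy6 was called lower in RNA without 48 h replicate 1 (adjusted p = 0.0332), opposite to its H3K4me3 call. The RNA and the H3K4me3 log2 fold changes had the same sign in 19 of 40 members (47.5%), beside 57.1% of all genes. Across the 40 members the Spearman correlation of the changes was 0.11 (Pearson r 0.14), beside 0.26 (0.30) over all genes, from separate libraries of each assay.

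Several members were called in 1 assay and not in the other. Prkar2b, whose RNA rose 2.16-fold, had H3K4me3 counts of 198 and 191 CPM at 0 h and 215 and 212 CPM at 48 h (log2 0.13 ± 0.07, adjusted p = 0.257). Rapgef4, whose RNA fell, was at 22.3 and 23.8 CPM at 0 h and 24.1 and 20.9 CPM at 48 h in H3K4me3 (-0.03 ± 0.10, 0.903), and Prkar1b at 21.2 and 21.5 CPM at 0 h and 22.4 and 23.0 CPM at 48 h (0.09 ± 0.10, 0.682). Crtc2 and Crtc3 fell in RNA, while their H3K4me3 estimates were 0.15 ± 0.07 (0.218) and 0.19 ± 0.08 (0.14). For Prkar2b, Prkar1b and Crtc2 both 48 h libraries lay above both 0 h libraries in H3K4me3, without a call. Adcy5 gained the mark with an RNA estimate of -0.15 ± 0.37 (0.784), and Adcy6 with one of -0.30 ± 0.14 (0.14). A missed threshold in either assay does not show that the gene was the same in both groups.

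**Figure D5:**
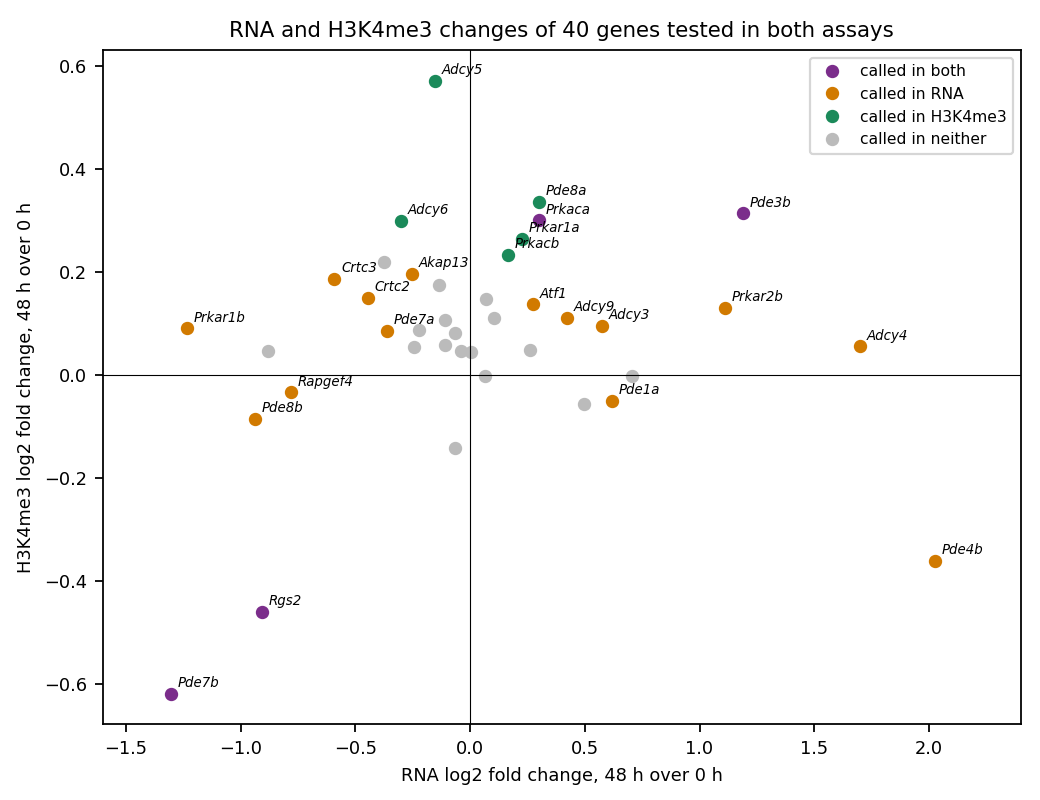
RNA log2 fold change (horizontal axis) against H3K4me3 log2 fold change (vertical axis), both 48 h over 0 h, for the 40 members tested in both assays, coloured by the assay in which they were called. Pde7b and Rgs2 sit together at the lower left, Pde3b and Prkaca at the upper right, and Pde4b at the lower right with 2.03 in RNA and -0.36 in H3K4me3, the latter not called.

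Around these members, 149 further genes of the pathway were counted, of which 122 were tested for RNA. Of these 34 rose, 21 fell and 67 did not pass, so that 45.1% were called, beside the 31.8% of all genes given above. The lists were chosen with earlier results of these data known, so their shares are descriptions and not tests. Values in parentheses are the log2 fold change, with its SE where given, and then the adjusted p. Among receptors, 4 of 13 rose and 1 fell. Lhcgr, the LH receptor, was at 88.5, 42.3 and 69.1 CPM at 0 h and 1165, 723 and 762 CPM at 48 h (log2 3.73 ± 0.30, adjusted p = 1.79e-04), and Fshr, the FSH receptor, at 93.4, 93.9 and 129 CPM at 0 h and 241, 291 and 259 CPM at 48 h (1.32 ± 0.14, 5.26e-04). Both also gained H3K4me3, with log2 values of 1.79 (adjusted p = 4.00e-17) and 0.56 (1.09e-07). Ramp2, a partner of calcitonin-type receptors, rose by 1.5 (0.0125), with 26.4, 9.55 and 12.1 CPM in the 48 h libraries. Of 14 G protein genes 4 rose, among them Gnai2, an inhibitory α subunit (log2 0.45 ± 0.09, adjusted p = 0.00526), and Gng2 (0.81 ± 0.15, 0.00493). Gnas, the stimulatory α subunit, was at 687, 639 and 659.8 CPM at 0 h and 799, 869 and 808 CPM at 48 h (0.32 ± 0.09, 0.0323); it overlaps an antisense gene, Gnasas1, and its call was lost with scaling by library size alone (0.227) and without 0 h replicate 2 (0.11), 0 h replicate 3 (0.102), 48 h replicate 2 (0.0928) or 48 h replicate 3 (0.0617).

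Of 18 tested genes that desensitise receptors, RGS genes included, 7 fell and 2 rose, so that 50% were called. Over all genes 15.8% were called lower and 16.0% higher. Rgs11 fell by 1.15 on the log2 scale (adjusted p = 0.00207) and the receptor kinase Grk4 fell by 1.02 (0.00514), while Rgs5, also a marker of pericytes, rose by 1.27 (0.0234) with 27.5, 9.27 and 15.1 CPM in the 48 h libraries. The call of Rgs5 was lost without any one of 0 h replicates 1, 2 and 3 (0.0611, 0.072 and 0.0627). Among other genes listed by name with the cyclases and phosphodiesterases 3 of 6 rose and 1 fell. They include Pde6d (0.54 ± 0.13, 0.0121), which overlaps Cops7b, and Pde2a (1.08 ± 0.32, 0.0325), the latter with 22.2, 9.55 and 10.8 CPM at 48 h. Pde2a was lost without 0 h replicates 1, 2 or 3 (0.0959, 0.0525 and 0.0858), and Pde6d without 0 h replicate 3 (0.0514). Of 12 other anchoring proteins 3 rose and 3 fell: Cbfa2t3 was at 0.89 (8.05e-04), Map2 at -0.97 (7.44e-04) and Akap8l at -0.72 (0.00259).

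PKA inhibitors did not pass: Pkia had a log2 value of 0.32 ± 0.18 (adjusted p = 0.198) and Pkig of 0.09 ± 0.12 (0.593), an estimate below 0 with scaling by library size alone, and Pkib was below the filter. In their group of 16 tested genes that inhibit PKA or bind or follow cAMP otherwise, 4 rose and 2 fell. Popdc2, which binds cAMP, fell in RNA (-0.88, 0.0280) and in H3K4me3 (-0.64, 0.0107). Rap1a, a GTPase served by EPAC, rose by 0.31 (0.0274). The RNA call of Popdc2 was lost without 0 h replicates 2 or 3 (0.0683 and 0.113) and 48 h replicates 2 or 3 (0.115 and 0.114), and that of Rap1a without 0 h replicates 2 or 3 (0.0946 and 0.0987) and 48 h replicate 3 (0.0734).

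Of 19 other CREB family genes, coactivators and kinases 2 rose and 3 fell. Sik1 and Sik2 phosphorylate CRTC proteins and keep them out of the nucleus. Sik1 was at 45, 29.3 and 109 CPM at 0 h and 20.1, 18.4 and 15.6 CPM at 48 h (-1.76 ± 0.42, 0.0139) and Sik2 at 26.3, 30.7 and 31.5 CPM at 0 h and 19.6, 20.4 and 22.4 CPM at 48 h (-0.50 ± 0.11, 0.00828), both lower at 48 h, as were Crtc2 and Crtc3. The Sik2 gene overlaps Ppp2r1b, and whether counting used strand is not given. The call of Sik1, whose 0 h libraries spread widely, was lost without 48 h replicate 2 (0.0502) or 48 h replicate 3 (0.057). Rps6ka3, a kinase of CREB, rose by 0.52 (0.00901).

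Of 24 tested genes known as targets of cAMP and CREB, 12 rose and 4 fell, so that 66.7% were called, beside 31.8% of all genes. This list too was chosen with earlier results of these data known, so its share is a description and not a test. Some of its genes, Cyp19a1 among them, are also counted above as granulosa markers and Star as a theca marker. The part of other cells was not tested. Cyp19a1, the aromatase, was at 261, 137 and 231 CPM at 0 h and 909, 851 and 717 CPM at 48 h (log2 1.98 ± 0.22, adjusted p = 6.28e-04) and Star, which brings cholesterol into mitochondria, at 62.6, 28.4 and 23.6 CPM at 0 h and 399, 109 and 214 CPM at 48 h (2.66 ± 0.50, 0.00501). Dusp1, a phosphatase of MAP kinases, rose by 2.34 ± 0.30 (9.73e-04). The 4 that fell were Nr4a1, Nr4a2, Fos and Egr1. Nr4a1 was at 118, 39.6 and 166 CPM at 0 h and 27.5, 23.6 and 23.3 CPM at 48 h (-2.12 ± 0.43, 0.00673), with 0 h libraries that spread widely, and its H3K4me3 count fell as well (log2 -0.65, adjusted p = 9.12e-09). Per1 did not pass (-0.26 ± 0.21, 0.373), although it did without 0 h replicate 2 (-0.47, 0.0359).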

How the data were processed

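Raw read counts per Entrez gene ID, deposited by the authors for 6 RNA and 4 H3K4me3 libraries, were the starting point. Build mm10, STAR, kallisto, sleuth, Picard and FastQC 0.11.5 are listed for RNA, and Bowtie2 2.2.9, Trimmomatic, MACS2 2.2 and ChIPseeker 1.18.0 for ChIP-seq, per the submitters' processing notes. The counting program, its use of strand and the H3K4me3 window per gene are not stated in those notes or the labels. H3K4me3 libraries are numbered as in the column names. The input DNA library was not used.

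Groups were compared within each assay by edgeR 4.0.16 (R 4.3.3; glmQLFit, glmQLFTest) on the deposited counts with TMM scaling, filterByExpr and Benjamini-Hochberg adjustment over all genes tested. SE is the log2 fold change divided by the square root of the F statistic, and borrows variation across genes. CPM is the count over TMM-scaled library size, given as mean ± SD or per library. The pseudocount is edgeR's default. Alternatives were DESeq2 1.42.0 and its size factors in edgeR, limma 3.58.1 voom, scaling by library size alone, no filter, a minimum mean of 1 CPM, a replicate block and each library left out; the reading without 48 h replicate 1 as a doubted library was added after seeing the data. Scripts were tested on simulated counts. No 2 libraries of a group were within sampling noise.

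Members and gene lists were chosen with earlier results of these data known. Called members with a mean of at least 1 CPM are given per library; of the wider pathway list, up to 3 called genes per group with the largest change and at least 5 CPM are named, plus Gnas, Pkia, Pkib, Pkig, Nr4a1, Per1, Star and Cyp19a1; 1 gene that this rule names is not reported here. Symbols, coordinates and promoter windows come from RefSeq tables of GRCm38.p6; symbols matched 24742 of 24809 RNA and 24472 of 24541 H3K4me3 gene IDs. CpG, TGACGTCA, TGACG and CGTCA were searched by exact match.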

Additional observations from a re-analysis of the deposited data

How the results depend on the processing

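The RNA counts of called members were 9 higher and 9 lower as reported. Leaving out 1 library at a time gave 5 to 13 higher and 7 to 13 lower members, and 2882 to 5345 called genes in all, against 4585, with 2956 when the second and 2882 when the third 0 h library was left out. In H3K4me3 the 7 higher members became 3 with DESeq2 and 1 to 10 when 1 library was left out, and the 2066 genes called in all became 865 with DESeq2, 1280 with the replicate block and 280 to 2764 without 1 library (280 without 0 h replicate 1, 1254 without 0 h replicate 2, 1181 without 48 h replicate 1); with 1 library in an arm, that library is assumed to vary like those of the other group. With scaling by library size alone, the log2 ratio of summed CPM was -0.40 for phosphodiesterases (-0.23 with TMM), 0.051 for catalytic subunits (0.22), -0.86 for EPAC genes (-0.69), -0.32 for anchoring proteins (-0.15), -0.10 for CREB family factors (0.07) and -0.51 for coactivators (-0.34). The catalytic sums then overlapped between groups and the CREB family sum changed sign. Pkig had a log2 value of -0.073 under that scaling. Per1 ranged from -0.47, where it passed (without 0 h replicate 2), to 0.0031 (without 0 h replicate 3). Without the bases after the start, 1 member window held the complete element in place of 2. Of 684 values under alternatives of the called members and the named wider genes, 600 kept direction and side of the threshold, 81 lost the call, 1 gained it and 2 changed sign. Members with no call gained one in RNA under DESeq2 (2), its size factors (1), scaling by library size alone (3), and without the first 0 h (1) or first 48 h library (8), and in H3K4me3 without 48 h replicate 2 (4). The cause of these shifts was not tested.

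Replicate numbers are shared between groups but nothing states that they pair libraries. Deviations of same-numbered RNA libraries from their group means correlated at -0.21, -0.15 and -0.13, and those of H3K4me3 at 0.02, so the numbers were not taken to pair. With the replicate block, 3312 RNA genes were called (4585 without), with 7 members higher and 8 lower; Prkaca (0.0652), Akap13 (0.0765) and Atf1 (0.109) lost the call. In H3K4me3 the block left 5 members higher and 2 lower, Prkacb (0.128) and Prkar1a (0.0757) losing the call. With 3 and 2 libraries per group, small differences such as those of Atf1, Akap13 and Prkaca are near what these data can resolve, and 4 members with few counts were not tested for RNA.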
